A study of Mus musculus with 18 samples.

Results

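The Tcf/Lef factors and their coactivators carry the Wnt signal at the chromatin, and 8 of them were followed over 18 mouse arrays: Lef1, Tcf7l1, Tcf7l2, Bcl9, Bcl9l, Pygo1, Pygo2 and Ctnnbip1. They were taken as a named list, each through its only probe set with a single gene symbol, and are 8 of the 19938 genes measured. Tcf/Lef proteins bind DNA through an HMG box and hold target genes silent with TLE corepressors until beta-catenin joins them. Apc belongs to the complex that destroys beta-catenin, so its loss lets beta-catenin build up. Bcl9 and Bcl9l bind beta-catenin and link it to Pygo1 and Pygo2, which read methylated histone tails, whereas Ctnnbip1 (ICAT) binds beta-catenin and keeps it from the Tcf/Lef factors. In mouse embryonic stem cells (ESCs) Tcf7l1 is known mainly as a repressor and Lef1 as an activator, and Tcf7l2 is the main factor of the family in intestinal epithelium.

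The study asked how Apc mutation and mutant beta-catenin act in different cell types. Its 18 arrays hold 3 lines of reprogrammed colon tumour cells (RTCs 1, 2 and 3), which are tumour cells turned into a pluripotent state, and 2 lines that descend from them, called derivatives (#45, from RTC 1, and #9, from RTC 3). There was 1 array each of Apc Min/Min, Apc Min/+ and Apc +/+ ESCs, Min being a truncating allele of Apc. Small intestinal organoids derived from #45 were profiled with and without 4-hydroxytamoxifen (4-OHT, 1 uM for 2 days), with 1 array each. Embryonic fibroblasts (MEFs) derived from #45 had 2 arrays with 4-OHT (2 ug/ml for 2 days) and 2 without. S33-ES cells and S33-MEFs had 1 array each with doxycycline (dox+) and without it (dox-). The labels used here do not give the Apc genotype of the RTCs, what was altered in the derivatives, what 4-OHT switches in them, what S33 stands for, or the dose and time of dox. The #45 organoids and MEFs go back to 1 derivative line. For the Apc Min/Min ESCs a second culture medium is listed, and the labels do not say which one this array's cells had.

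Levels are given as log2 intensity after a joint quantile normalization of the 18 arrays, in which the median probe set of every array lay at 7.93. A level of 1 probe set cannot be set against that of another, so each gene is compared only with itself across arrays. The replicate SD given below is a gene's spread within the groups that have replicate arrays, pooled over RTCs, derivatives and both MEF groups (5 degrees of freedom). It describes single arrays. A difference between single arrays varies more widely, so a difference above the replicate SD is no test of a change. The cell types matched their labels: the mean of 6 pluripotency markers was 12.38 to 12.71 in RTCs, derivatives and ESCs, against 6.57 to 7.02 elsewhere, and that of 6 intestinal markers 12.39 to 12.56 in organoids, against 6.49 to 6.86 elsewhere. Of 6 fibroblast markers, the mean was 11.92 to 12.78 in MEFs, 7.09 to 7.49 in organoids and 8.06 to 10.9 in the pluripotent cultures. The mean of 6 myeloid markers was 10.4 with and 10.77 without 4-OHT in the first pair of #45 MEF arrays, and at most 8.65 on the other arrays. In bulk RNA, fewer cells of a type and less RNA per cell cannot be told apart.

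Lef1 and Tcf7l1 were the members with the widest range over the arrays, and the 250 bases before a start site of each are shown because the results turn on these genes. Sequences are from RefSeq (GRCm38.p6), whose table held 7 of the 8 members with 14 start sites. Capitals mark CTTTG, the first 5 letters of the Tcf/Lef core, searched on both strands. The Lef1 window is chr3:131110047-131110296 on the + strand, with the match starting 161 bases before the start site. The Tcf7l1 window is chr6:72789046-72789295 on the - strand, with the match 28 bases before the start site.
Lef1: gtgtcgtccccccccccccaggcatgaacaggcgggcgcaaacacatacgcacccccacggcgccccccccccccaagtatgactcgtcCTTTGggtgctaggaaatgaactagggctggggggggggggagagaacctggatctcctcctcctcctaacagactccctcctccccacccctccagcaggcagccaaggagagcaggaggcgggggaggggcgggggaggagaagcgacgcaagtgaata
Tcf7l1: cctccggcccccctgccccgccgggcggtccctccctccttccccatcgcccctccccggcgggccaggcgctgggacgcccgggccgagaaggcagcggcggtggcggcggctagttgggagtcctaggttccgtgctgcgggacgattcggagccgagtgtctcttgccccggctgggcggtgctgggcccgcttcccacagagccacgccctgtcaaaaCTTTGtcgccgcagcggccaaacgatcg
The short core was in 9 of the 14 members' windows and in 48.6% of all 32851 windows of this length. Some members have several windows, and these can overlap. The match 161 bases before the Lef1 start site shown also lies 187 bases before another Lef1 start site. The 9 windows are therefore not separate sites, and no excess over all windows can be read from them. The 7-letter core CTTTGAA or CTTTGAT, which contains the short one, was in 0 of the 14 and in 7.48% of all windows. These are matches of letters and say nothing of binding.

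Lef1 ranged over 3.05 log2 units (8.27-fold) with a replicate SD of 0.18. It was high in RTCs (9.69, 9.95 and 9.92) and intermediate in the derivatives (8.74 for #45 and 8.87 for #9) and in Apc Min/Min (9.27), Apc Min/+ (9.16) and Apc +/+ ESCs (9.08). It was lowest in the organoids (8.0 with 4-OHT and 7.32 without), S33-ES dox+ (7.78), S33-MEF dox- (7.89) and the #45 MEFs (7.98 and 8.23 with 4-OHT, 7.83 and 8.23 without). On these 8 arrays Lef1 ranked in the lower part of the 19938 genes, below their median. The highest levels were those of S33-MEF dox+ (10.36) and S33-ES dox- (10.37), so that each S33 cell type had 1 array at either end of the range. In the order of group means, S33-ES dox+, S33-MEF dox-, the organoid with 4-OHT and both #45 MEF groups followed each other by less than the replicate SD, as did the 3 Apc ESC lines.

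Tcf7l1 ranged over 3.78 log2 units (13.8-fold, replicate SD 0.21). It was 8.24 and 7.88 in organoids with and without 4-OHT, the only arrays where it ranked below the median gene. RTCs (9.71, 10.12 and 10.26) and Apc Min/Min ESCs (10.10) came next and differed by less than the replicate SD. The other arrays lay between 10.57 (S33-MEF dox+) and 11.66 (S33-ES dox-), and among the groups from S33-MEF dox+ up to S33-MEF dox- each differed from the next by less than the replicate SD. Tcf7l2 (range 1.92, replicate SD 0.11) split the cell types in another way, with 11.10 and 10.63 in the organoids with and without 4-OHT and 10.39 to 10.98 in MEFs, against 9.17 to 10.26 in the pluripotent cultures.

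Among the coactivators, Bcl9l split by cell type without overlap: 11.03 to 11.56 on 6 MEF arrays, 10.27 and 9.96 in organoids with and without 4-OHT, and 8.75 to 9.56 on 10 pluripotent arrays. Bcl9 was 11.23 to 11.69 in MEFs, 11.54 and 11.02 in organoids with and without 4-OHT, and 9.58 to 11.53 in pluripotent cells, where S33-ES dox+ (11.29) and dox- (11.53) reached MEF levels. Pygo1 was 9.34 to 9.85 in MEFs, 7.76 to 9.02 in pluripotent cells, and 7.55 and 7.25 in organoids with and without 4-OHT. Pygo2 and the inhibitor Ctnnbip1 stayed within 0.98 and 0.94 log2 units, a range narrower than that of all but 16.3% and 14.5% of 13937 genes. For Pygo2 no group differed from its neighbour in the order of means by more than the replicate SD of 0.21.

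**Figure D1:**
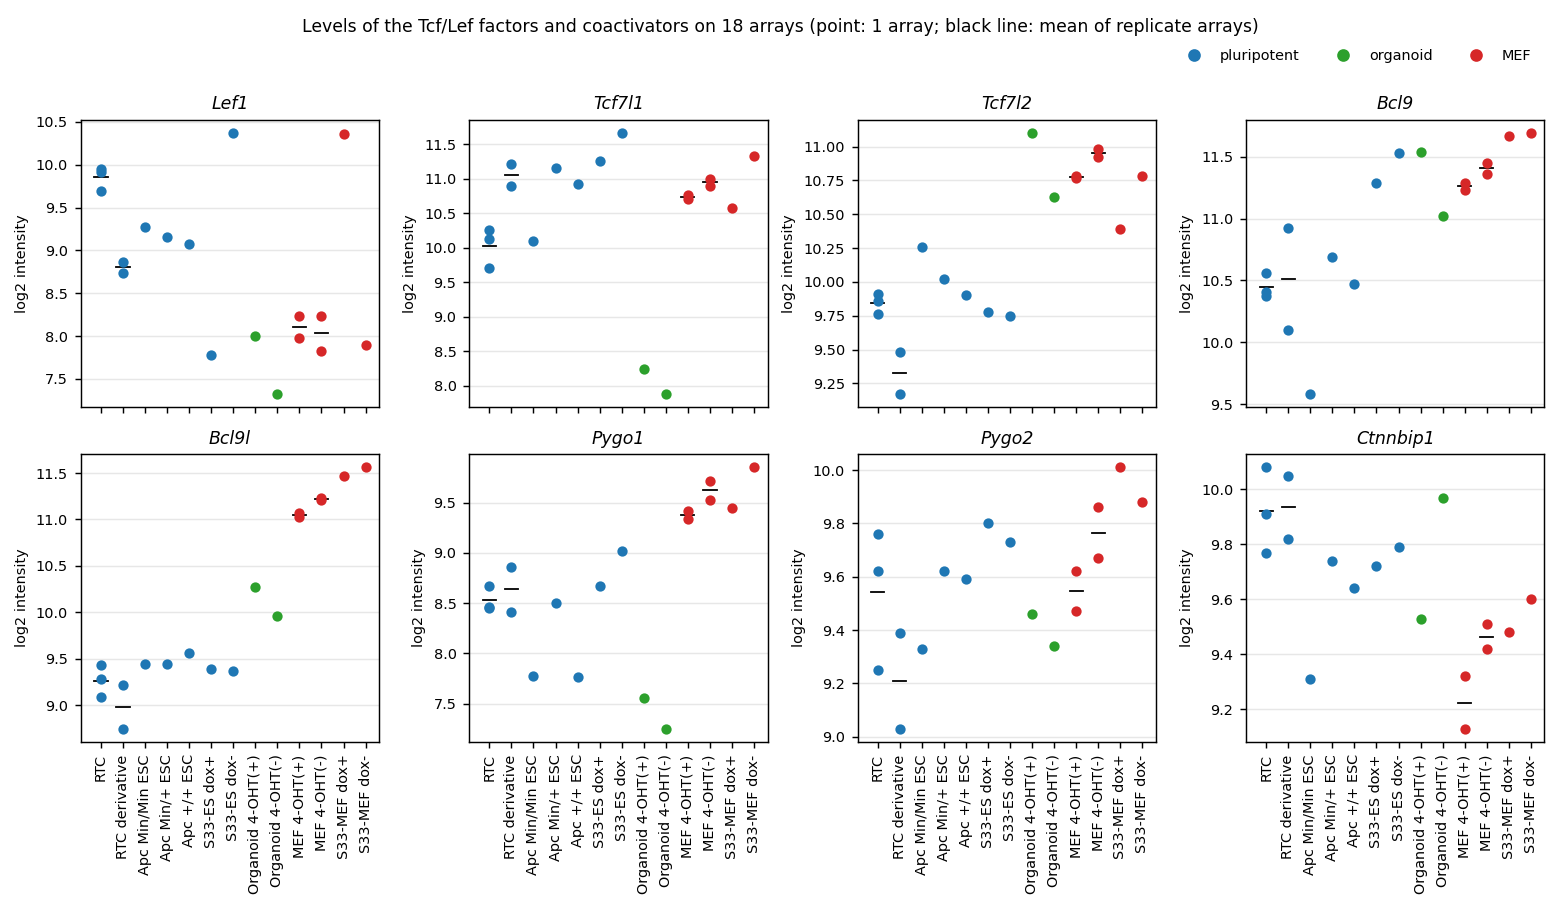
Log2 intensity of each of the 8 genes (y axes, 1 scale per gene) in the 13 groups (x axis); a point is 1 array, a black line the mean of replicate arrays, and colours give the cell type. Lef1 is near 10.4 in S33-ES dox- and S33-MEF dox+, Tcf7l1 is lowest in the 2 organoid arrays, and Bcl9l separates MEFs, organoids and pluripotent cells.

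The balance between Lef1 and Tcf7l1 was described as the Lef1 level minus the Tcf7l1 level on an array, less the mean of that difference over the 18 arrays. It shows a shift between arrays and not which protein was more abundant, and it was not tested. RTCs stood at 1.65, 1.5 and 1.33, and Apc Min/Min ESCs at 0.83, on the side of Lef1. The derivatives stood at -0.48 and -0.68, and Apc Min/+ and Apc +/+ ESCs at -0.33 and -0.18. The #45 MEFs lay at -1.06 and -0.86 with 4-OHT and -1.40 and -1.09 without it. Organoids lay at 1.43 with 4-OHT and 1.11 without, where both genes were low and Tcf7l1 was the lower relative to its own mean. The S33 cells crossed: S33-ES stood at -1.81 with dox and 0.37 without, and S33-MEFs at 1.45 with dox and -1.78 without.

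**Figure D2:**
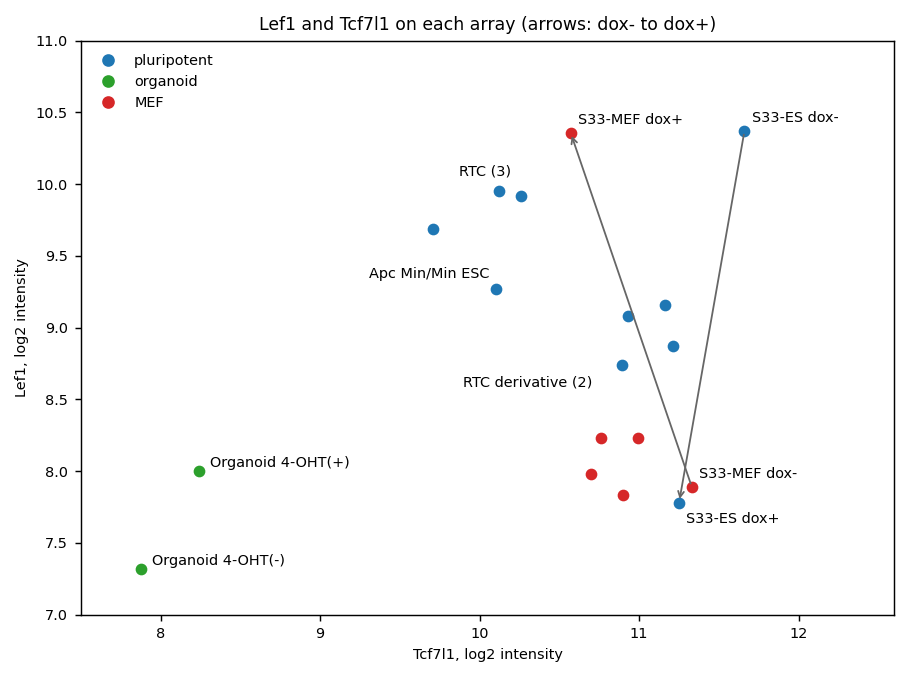
Lef1 (y axis) against Tcf7l1 (x axis), both log2 intensity, on each of the 18 arrays coloured by cell type; arrows run from dox- to dox+. The arrow of S33-ES ends 2.59 lower in Lef1 and that of S33-MEF 2.47 higher, and both end lower in Tcf7l1 (by 0.41 and 0.76).

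One subject of the series is mutant beta-catenin switched on in stem cells or fibroblasts, and the 2 S33 contrasts are those with dox in such cells, though the labels do not say what dox induces. With dox, Lef1 was 6.0-fold lower in S33-ES (7.78 with dox, 10.37 without; difference -2.59) and 5.55-fold higher in S33-MEFs (10.36 with dox, 7.89 without; difference 2.47). Both differences exceed the replicate SD of Lef1 (0.18), which comes from other cells, but each rests on 1 array per arm and has no replicate check. The low levels, 7.78 in S33-ES dox+ and 7.89 in S33-MEF dox-, lay below the array median of 7.93. Lef1 therefore passed the filter only through its high array in each contrast, and how far above background the low levels lie is unknown. In S33-ES, 3.16% of 11254 genes were at least 2-fold apart, and Lef1 was the 5th lowest difference and the only member past 2-fold. In S33-MEFs, 6.22% of 11390 genes were, and Lef1 was the 35th highest difference and again the only member past 2-fold. Of 10225 genes measured in both, 22 were at least 2-fold apart in the same direction and 19 in opposite directions, Lef1 being among 13 that were lower with dox in S33-ES and higher with dox in S33-MEFs.

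None of the other 7 members was 2-fold apart with dox in either cell type. Tcf7l1 was 11.25 with dox and 11.66 without in S33-ES (difference -0.41), and 10.57 with dox and 11.33 without in S33-MEFs (difference -0.76), both more than its replicate SD of 0.21. Pygo1 differed by -0.35 and -0.40 in S33-ES and S33-MEFs (replicate SD 0.18). Tcf7l2 differed by 0.03 in S33-ES and -0.39 in S33-MEFs (replicate SD 0.11). Bcl9, Bcl9l, Pygo2 and Ctnnbip1 differed by no more than their replicate SD in either cell type. Of 28 Wnt target genes on the array, 19 passed the filter in each contrast. In S33-MEFs, 10 were at least 2-fold higher with dox, led by Notum (3.29), Nkd2 (3.17), Apcdd1 (2.95) and Axin2 (2.67), which are feedback inhibitors of Wnt signalling, and Lgr5 (-1.5) and Sox9 (-1.15) were lower. The median of the 19 was 1.18, against 0.04 for all genes. Some of the 10, such as Notum (7.3 without dox), lay below the array median without dox. They passed the filter only through the dox+ array, so the count and the median rest in part on that choice. In S33-ES, 0 target genes were 2-fold higher and 3 were lower: Cd44 (-1.86), Fgf8 (-1.25) and Myc (-1.0), with a median of -0.24, against 0.01 for all genes. There Cd44 (7.82 with dox) passed only through the dox- array. Of 40 other nuclear Wnt cofactors on the array, 0 of 37 that passed the filter in S33-ES and 0 of 39 in S33-MEFs were 2-fold apart. Of all genes, 3.16% were in S33-ES and 6.22% in S33-MEFs, so few cofactors would be past 2-fold at those shares.

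The Ctnnb1 probe set did not check the label, since the level was 12.80 with and without dox in S33-ES, and 13.02 with and 12.96 without in S33-MEFs. The fibroblast marker mean was lower with dox in both (8.06 with and 9.00 without in S33-ES, 11.92 with and 12.78 without in S33-MEFs), and the pluripotency mean was 12.66 with and 12.38 without in S33-ES. All 6 pluripotency and all 6 intestinal markers lay below the array median in both S33-MEF arrays, and the part of fibroblast marker changes in the Lef1 difference was not tested.

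**Figure D3:**
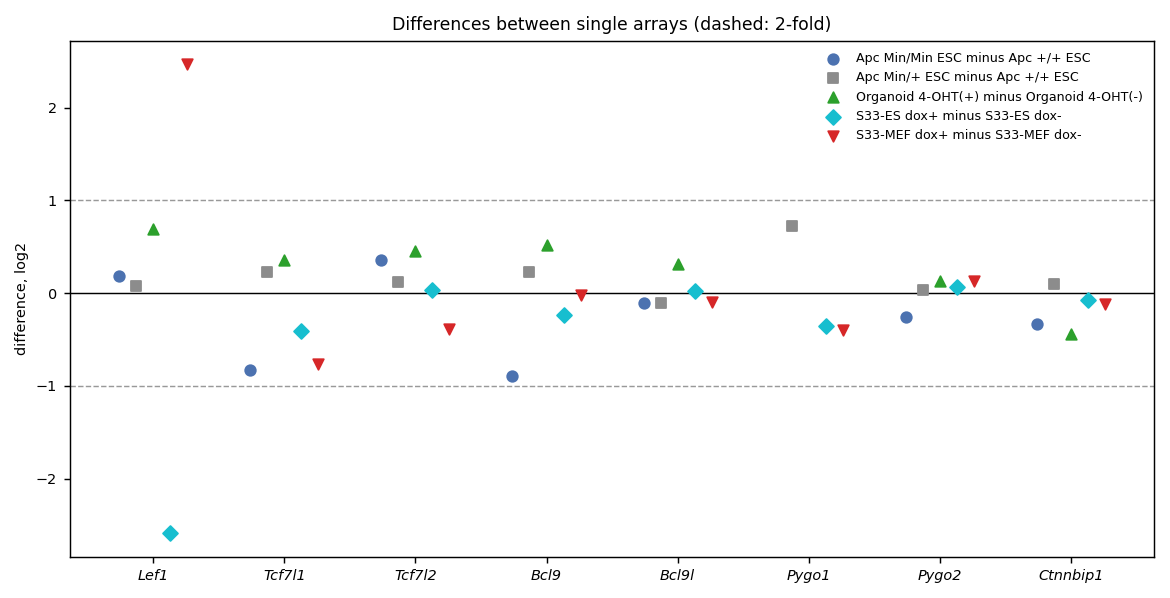
Difference in log2 intensity (y axis) for each gene (x axis) in the 5 contrasts with 1 array per arm; dashed lines mark 2-fold. Lef1 in S33-ES (-2.59) and in S33-MEF (2.47) are the only points past 2-fold, and Bcl9 and Tcf7l1 in Apc Min/Min ESCs come nearest (-0.89 and -0.83).

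On 1 array each, Bcl9 and Tcf7l1 were lower in Apc Min/Min than in Apc +/+ ESCs, and Lef1 differed by about its replicate SD (0.18). Bcl9 and Tcf7l1 ranked only 871st and 999th lowest of 11390 genes. Bcl9 was 9.58 in Apc Min/Min and 10.47 in Apc +/+ ESCs (difference -0.89, replicate SD 0.27), its lowest level on any array. Tcf7l1 was 10.10 in Apc Min/Min and 10.93 in Apc +/+ ESCs (difference -0.83), and Lef1 was 9.27 and 9.08 (difference 0.19). Tcf7l2 (0.36), Ctnnbip1 (-0.33) and Pygo2 (-0.26) differed by more than their replicate SD, and Bcl9l (-0.11) by less. In this contrast 10.3% of 11390 genes were at least 2-fold apart, and 0 of the 7 members that passed the filter were. Pygo1 did not pass, at 7.77 in Apc Min/Min and 7.76 in Apc +/+ ESCs. Of 22 target genes, 10 were at least 2-fold higher in Apc Min/Min ESCs, led by Dkk1 (3.48), Nkx1-2 (3.40), Axin2 (2.49) and Cdx2 (2.45), and 1 lower, Ascl2 (-2.08). Of 38 other cofactors, 7 were higher, with Sox17 at 4.23 and Sox7 at 1.56, and 1 was lower, Ruvbl1 (-1.06). Sox17 is a transcription factor of endoderm that also binds beta-catenin. Of the 10, Nkx1-2 (7.25), Cdx2 (7.04), Sp5 (7.21), Lgr5 (7.01), Cdx1 (7.86) and Notum (7.87) lay below the array median in Apc +/+ ESCs. So did Sox17 (6.7) and Sox7 (7.59), and Ascl2 (7.61) did in Apc Min/Min ESCs. Each passed the filter only through the array where it is high, so the counts rest in part on that choice. How far above background the low levels lie is unknown. The fibroblast marker mean was 10.9 in Apc Min/Min and 10.5 in Apc +/+ ESCs.

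In Apc Min/+ against Apc +/+ ESCs, 0.107% of 11244 genes were at least 2-fold apart, and 0 of 8 members were. Pygo1 was 8.50 in Apc Min/+ and 7.76 in Apc +/+ ESCs, a difference of 0.73 and the 26th highest. Its level in Apc +/+ ESCs lay below the array median, so Pygo1 passed the filter only through the Apc Min/+ array. How far above background that low level lies is unknown, and the Pygo1 difference has no replicate check. The other 7 differed by -0.11 to 0.23. Both contrasts use the same Apc +/+ array.

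In the organoids, 2.84% of 11397 genes were at least 2-fold apart between 4-OHT and no 4-OHT, and 0 of the 7 members that passed the filter were. Lef1 was 8.0 with 4-OHT and 7.32 without (difference 0.69), Bcl9 differed by 0.52, Tcf7l2 by 0.46, Tcf7l1 by 0.36, Bcl9l by 0.31 and Ctnnbip1 by -0.44, each more than its replicate SD, and Pygo2 by 0.13, which was less. These values depend on how the 2 arrays are scaled. As deposited, the median of all genes differed by -0.45 and Lef1 by -0.06, and with each array centred on its median Lef1 differed by 0.56. Among target genes, 4 of 19 were at least 2-fold higher, led by Nkd1 (2.08) and Tnfrsf19 (1.89), and 0 lower. Of 38 other cofactors, Sox17 (1.38) and Amotl1 (1.10) were higher. Without 4-OHT, Lef1 (7.32), Tcf7l1 (7.88), Sox17 (6.99), Amotl1 (7.66) and the target gene Notum (7.5), among the 4 counted, lay below the array median. They passed the filter only through the 4-OHT(+) array. The target and cofactor counts are given after joint normalization only.

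RTCs were compared with 3 ESC arrays, namely Apc +/+, Apc Min/+ and S33-ES dox- (whose Apc genotype the labels do not give), to see whether the reprogrammed tumour cells share the ESC pattern. Tcf7l1 was the 1 member called, and it was lower in RTCs (9.71, 10.12 and 10.26) than in these ESCs (10.93, 11.16 and 11.66) without overlap. The difference was -1.22 ± 0.23 (SE, 3 arrays each, limma adjusted p = 0.0229), and 6.69% of 12080 genes were called. The call was lost without RTC 1 (adjusted p = 0.0574), RTC 2 (0.0666), RTC 3 (0.0613) or Apc Min/+ (0.0785), with differences from -1.34 to -1.06 in those fits. Lef1 differed by 0.32 ± 0.33 (adjusted p = 0.601), the S33-ES dox- array (10.37) being above and both Apc lines (9.08 and 9.16) below all RTCs. Without the S33-ES array the Lef1 difference was 0.73 (adjusted p = 0.0194). The other 6 members differed by -0.45 to 0.20 and were not called. Of 21 target genes, 5 were higher in RTCs and 0 lower, led by Nkx1-2 (2.96), Cdx1 (1.90), Axin2 (1.75) and Cdx2 (1.58), with a list median of 0.21, against -0.03 for all genes. Of the 5, Nkx1-2 (7.46), Cdx2 (7.23) and Sp5 (7.63) had ESC means below the array median. Their distance from background is unknown, and the count rests in part on them. Of 39 other cofactors 0 were higher and 1 lower, Amotl1 (-0.72 ± 0.12, adjusted p = 0.015). The fibroblast marker mean was 8.97 to 9.47 in RTCs, against 10.5 and 10.46 in the Apc +/+ and Apc Min/+ ESCs and 9.00 in S33-ES dox-. The myeloid marker mean was 7.55, 8.65 and 8.59 in RTCs 1, 2 and 3, against 7.29 to 7.47 on the 3 ESC arrays. The part of neither list was tested.

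Against their derivatives, RTCs had more Lef1, at 9.69, 9.95 and 9.92 in RTCs and 8.74 and 8.87 in derivatives, without overlap. The difference was 1.05 ± 0.18 (limma adjusted p = 0.0411), and 1.60% of 11940 genes were called. When line of origin was added as a block, the difference was 1.0 and the call was lost (adjusted p = 0.0882), as it was without any 1 of the 5 arrays (adjusted p 0.0623 to 0.202). It was also lost on the deposited scale (1.17, adjusted p = 0.358) and with centred arrays (0.99, adjusted p = 0.052). Tcf7l1 was lower in RTCs by 1.02 on the log2 scale (difference -1.02 ± 0.23, adjusted p = 0.0822), at 9.71, 10.12 and 10.26 in RTCs and 10.89 and 11.21 in derivatives, and did not pass except with centred arrays (-1.15, adjusted p = 0.0493). Tcf7l2 was 9.86, 9.91 and 9.76 in RTCs and 9.17 and 9.48 in derivatives, also without overlap (0.52 ± 0.18, adjusted p = 0.27). The other 5 members differed by -0.11 to 0.33. Of 21 target genes 7 were higher in RTCs and 0 lower, among them Nkx1-2 (2.59), Axin2 (1.98), Bmp4 (1.77) and Cdx2 (1.77), with a list median of 0.49, against -0.02 for all genes. Of the 7, Nkx1-2 (7.83), Cdx2 (7.04), Sp5 (7.46) and Rnf43 (7.18) had derivative means below the array median. Their distance from background is unknown, and the count rests in part on them. Of 39 other cofactors 0 were called. The fibroblast marker mean was 8.97 to 9.47 in RTCs and 9.13 and 8.96 in derivatives. The myeloid mean was 7.55, 8.65 and 8.59 in RTCs 1, 2 and 3 and 8.01 and 7.55 in #45 and #9, and the part of neither list was tested.

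In derivatives against the same ESCs, 0% of 11941 genes were called by limma, although 1012 had an unadjusted p below 0.05, and 0 of 8 members were called. Lef1 was 8.74 and 8.87 in derivatives (-0.73 ± 0.40, adjusted p = 0.67), and Tcf7l1 differed by -0.20 ± 0.26 (adjusted p = 0.86). Tcf7l2 (-0.57), Bcl9l (-0.48), Pygo2 (-0.44) and Ctnnbip1 (0.22) did not pass either. RTC, derivative and ESC arrays each enter 2 of these 3 comparisons, so the comparisons are not independent.

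In MEFs, 4-OHT gave 0 called members and 0% of 11603 genes called in the fit without a block, with 519 at an unadjusted p below 0.05 by limma. Arrays with the same number deviated together (correlation 0.83), though no label says that the number marks a pair. With that number as a block, limma called some genes, as counted in the last section, but 0 members (lowest adjusted p = 0.22, Ctnnbip1). Lef1 was 7.98 and 8.23 with 4-OHT and 7.83 and 8.23 without (0.07 ± 0.19). The other 7 members had lower values with 4-OHT, by differences of -0.15 to -0.25, and none of them passed. The median over the 8 was -0.19, against 0 for all genes. Tcf7l1, for example, was 10.70 and 10.76 with 4-OHT and 10.90 and 10.99 without (-0.21 ± 0.09, adjusted p = 1). The fibroblast marker mean was 12.1 and 12.09 with 4-OHT and 12.7 and 12.68 without, and its part was not tested.

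**Figure D4:**
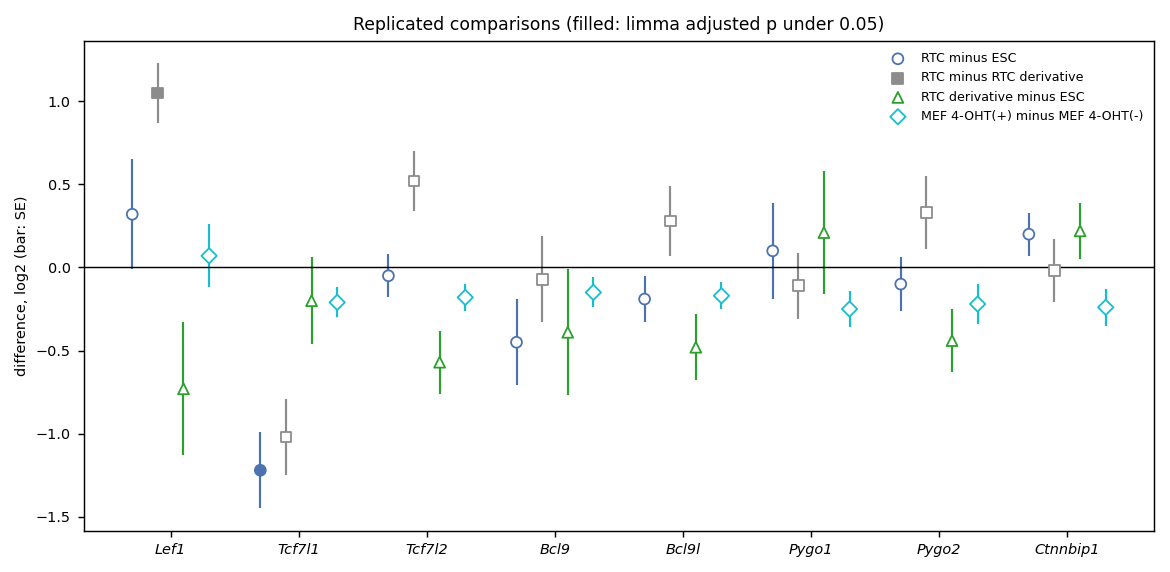
Difference in log2 intensity with its SE (y axis) for each gene (x axis) in 4 replicated comparisons; filled symbols passed limma at an adjusted p under 0.05. Tcf7l1 in RTC minus ESC (-1.22) and Lef1 in RTC minus derivative (1.05) are filled.

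Cell types were compared in 1 fit over 8 arrays: MEFs without agent (both #45 MEF 4-OHT(-) arrays and S33-MEF dox-), organoids with and without 4-OHT, and the 3 ESC arrays above. The #45 MEFs and the organoids descend from an RTC line and the ESCs do not, so cell type and origin cannot be told apart there. MEFs against ESCs had 61.8% of 12681 genes called, and 4 of 8 members, a share no higher than that of all genes. Bcl9l was higher in MEFs (11.23, 11.21 and 11.56) than in ESCs (9.56, 9.45 and 9.37), by 1.88 ± 0.15 (adjusted p = 3.49e-05). Pygo1 was higher in MEFs by 1.28 ± 0.29 (9.72, 9.53 and 9.85 in MEFs, 7.76, 8.50 and 9.02 in ESCs, adjusted p = 0.00578), and Tcf7l2 by 1.01 ± 0.15 (10.98, 10.92 and 10.78 in MEFs, 9.90, 10.02 and 9.75 in ESCs, adjusted p = 0.000771). Lef1 was lower in MEFs (7.83, 8.23 and 7.89) than in ESCs (9.08, 9.16 and 10.37), with a difference of -1.55 ± 0.35 (adjusted p = 0.00584). That call was lost when all 18 arrays were fitted by cell type (-0.86, adjusted p = 0.0512), a fit that holds both dox+ arrays, while Bcl9 was then called (0.86, adjusted p = 0.00203).

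Tcf7l1 did not differ beyond its error between MEFs and ESCs (-0.18 ± 0.22, adjusted p = 0.50). Bcl9 differed by 0.60 ± 0.28 (adjusted p = 0.0931), and by 0.92 without S33-ES dox- (adjusted p = 0.0055). The first #45 MEF array had the high myeloid marker mean of 10.77. Without that array each of the 4 calls was kept. Of 38 other cofactors, 9 were higher in MEFs, with Hipk2 (1.27), Amotl1 (1.24) and the Tcf7l2-binding kinase Tnik (1.21) at the top, and 10 were lower, with Parp1 (-2.43) and the Groucho-type corepressor Tle4 (-2.36) lowest. The median of the 38 was -0.07, against 0.07 for all genes. The ESC mean of Tnik (7.7) lay below the array median, and its distance from background is unknown. Some deposited arrays share identical values, as if scaled together, though no label states this. The second MEF 4-OHT(-) array was therefore also set against derivative #9 within such a set. There Bcl9l differed by 1.99, Tcf7l2 by 1.45, Pygo1 by 0.68 and Lef1 by -0.64. This comparison has 1 array per arm and was chosen after seeing the data. Its MEF array is also in the fit that gave the calls, and #9 is not one of the ESC arrays. It is therefore no separate check of the calls.

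Organoids against ESCs had 55.5% of 12871 genes and 5 of 8 members called. Tcf7l1 was 9.14-fold lower in organoids (8.24 and 7.88 in organoids, 10.93, 11.16 and 11.66 in ESCs; difference -3.19 ± 0.24, adjusted p = 1.36e-05). Lef1 was lower by a difference of -1.88 ± 0.39 (8.0 and 7.32 in organoids, adjusted p = 0.00375) and Pygo1 by -1.03 ± 0.32 (7.55 and 7.25 in organoids, adjusted p = 0.0244). These 3 genes ranked below the median gene in the organoids, and how far above background such values lie is unknown. Tcf7l2 (0.97 ± 0.17, adjusted p = 0.00153) and Bcl9l (0.66 ± 0.16, adjusted p = 0.00877) were higher in organoids. As deposited, where the median of all genes differed by -0.27, Tcf7l2 (0.52, adjusted p = 0.115) and Bcl9l (0.22, adjusted p = 0.44) were not called and Pygo2 was (-0.70, adjusted p = 0.0164; -0.25 and 0.131 after joint normalization). With the untreated organoid array alone, Bcl9l (adjusted p = 0.0653) and Pygo1 (0.0525) were not called, nor was Pygo1 without the untreated array (adjusted p = 0.133) or without Apc Min/+ (0.0632). Bcl9 differed by 0.38 ± 0.31 (adjusted p = 0.317), and by 0.70 without S33-ES dox- (adjusted p = 0.0222). Of 38 other cofactors 4 were higher in organoids, led by Hipk2 (2.33) and Tnik (2.18), and 12 lower, led by Amotl1 (-1.57) and Ruvbl1 (-1.29). For Tnik the ESC mean (7.7) lay below the array median, at an unknown distance from background.

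Organoids against MEFs had 55.1% of 13024 genes and 4 of 8 members called, all lower in organoids. Tcf7l1 differed by -3.02 ± 0.24 (adjusted p = 2.34e-05), Pygo1 by -2.30 ± 0.32 (adjusted p = 0.000509) and Bcl9l by -1.22 ± 0.16 (adjusted p = 0.000386). Pygo2 differed by -0.40 ± 0.13 (adjusted p = 0.0259), a call lost without the untreated organoid (0.129), the first #45 MEF array (0.0723) or S33-MEF dox- (0.0665), with centred arrays (-0.29, 0.262) and over all 18 arrays (-0.35, 0.121). Tcf7l2 (-0.03 ± 0.17) and Lef1 (-0.33 ± 0.39) were not called. The 3 cell type comparisons share their arrays. Of 22 target genes, 15 were higher and 3 lower in organoids than in ESCs, and 10 higher and 4 lower than in MEFs. Of all genes, 55.5% and 55.1% were called in these comparisons. Several counted genes had a mean below the array median on their low side. Among them were Cdx2 (7.23 in ESCs, 7.02 in MEFs), Rnf43 (7.43 in ESCs, 7.65 in MEFs) and Nkd2 (7.2 in organoids). The distance of such levels from background is unknown, and the counts rest in part on these genes.

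**Figure D5:**
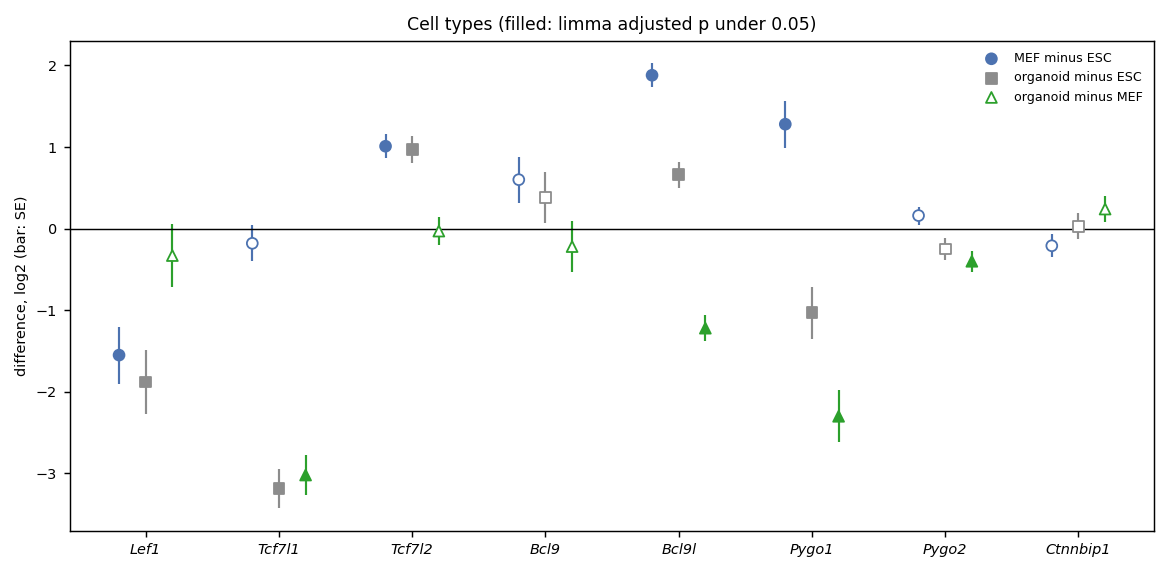
Difference in log2 intensity with its SE (y axis) for each gene (x axis) between cell types; filled symbols passed limma at an adjusted p under 0.05. Tcf7l1 is about 3 log2 units lower in organoids than in ESCs (-3.19) or MEFs (-3.02), and Bcl9l is highest in MEFs.

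Across the 18 arrays, which share cell types, the members did not move as one. Tcf7l2 and Bcl9l had the highest correlation among the 28 pairs (Pearson r = 0.84), with 0.75 within the 10 pluripotent arrays. Tcf7l2 and Ctnnbip1 ran in opposite directions (-0.68 over all, -0.73 in pluripotent arrays), and Lef1 and Tcf7l1 had r = 0.24 over all and -0.30 in pluripotent arrays. Of 13936 other genes, the nearest to Lef1 were Eomes (0.816), Zfp518b (0.746) and Nudt4 (0.744), a looser match than that of any other member. The nearest to Tcf7l1 were Ttc7b (0.943), Cdh3 (0.940) and Osbpl1a (0.939), and the nearest to Tcf7l2 were Fam171a1 (0.953), Letmd1 (0.952) and Nfib (0.942). Bcl9l was nearest to Tnrc18 (0.980), Bcl9 to Fchsd2 (0.928), Pygo1 to Hspa12a (0.944), Pygo2 to Pfn1 (0.855) and Ctnnbip1 to Fads6 (0.898).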

How the data were processed

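RNA of 18 samples was read on 1 single-colour array each. The authors deposited 1 intensity per probe set, linear as the values show (median per array 142 to 317); background correction, summarisation and scaling are not given in the sources used here. Arrays shared up to 19.2% of identical values in 2 sets (17.3% between Apc Min/Min and Apc +/+ ESCs, 9.52 to 19.2% among derivative #9 and the second pair of MEF arrays) and at most 0.104% otherwise, so a joint quantile normalization was applied to the log2 intensities. Of 28856 probe sets listed, 3 had no values and 21789 had a single symbol, 21698 of which matched RefSeq; the probe set with the highest mean stood for each of 19938 genes. Genes above the array median (percentile 50) in at least 1 array compared went into limma (version 3.58.1, under R 4.3.3), with a two-sided moderated fit and Benjamini-Hochberg adjustment over all genes at 0.05, a script tested on simulated data. The number of arrays limits the precision. Whether replicates were separate cultures is not given, so p-values may measure technical spread. Contrasts with 1 array per arm were not tested.

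The members and lists were chosen with earlier results of these data known. The text names the 8 members everywhere, at most the 4 largest rises and 4 largest falls of each list among genes past the test or 2-fold, and the nearest 3 genes by Pearson correlation. Further genes of the lists are named only where a level lay below the array median. Derivatives pair with RTCs through their line (the deviations of lines 1 and 3 correlated at 0.07). Alternatives were the deposited scale, median centring, no filter, limma-trend, blocks, other arms and leaving out each array.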

Additional observations from a re-analysis of the deposited data

Results flagged for a closer look

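Lef1 stood out in the S33 pair of contrasts because its single arrays moved in opposite directions: the difference dox+ minus dox- was -2.59 in S33-ES (7.78 with dox, 10.37 without) and 2.47 in S33-MEFs (10.36 with dox, 7.89 without). The difference between the 2 cell types was not tested, as each arm has 1 array. As deposited the values were -2.47 and 2.38, and with arrays centred on their median -2.46 and 2.40.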

How the results depend on the processing

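As deposited, 358 genes were called in RTCs against ESCs, 81 in RTCs against derivatives and 11 in derivatives against ESCs, and 41 were 2-fold apart in Apc Min/+ against Apc +/+ ESCs and 726 in organoids with against without 4-OHT. Centred arrays gave 20 and 613 for the last 2, against 12 and 324, and no filter gave 49 for Apc Min/+. In the organoids 239 genes were higher and 85 lower with 4-OHT after joint normalization, 104 and 622 as deposited, and 575 and 38 centred. Organoids against ESCs had 3366 higher and 3772 lower, but 1654 and 5249 as deposited; against MEFs 3642 and 3530, but 1662 and 4965. RTCs against ESCs had 388 and 420, but 272 and 595 centred; Apc Min/+ against Apc +/+ had 8 and 4, but 41 and 0 as deposited; RTCs against derivatives had 100 and 91, but 58 and 23 as deposited. Leaving out 1 array gave 234 to 1170 calls for RTCs against ESCs (281 without RTC 2, 234 without RTC 3, 344 without Apc +/+, 282 without Apc Min/+) and 33 to 383 for RTCs against derivatives (33, 56 and 37 without RTC 1, 2 and 3, 383 without #45, 116 without #9).

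Blocked on line of origin, RTCs against derivatives had 232 calls, and no member's call but that of Lef1 changed. The numbers of the MEF arrays are no stated pairs, though arrays of one number deviated together (correlation 0.83); as a block they gave 148 calls (54 higher and 94 lower with 4-OHT), 0 of them members.

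Directions turned for members that were not called. As deposited, RTC minus derivative was 0.06 for Pygo1 and 0.07 for Ctnnbip1, organoid minus ESC -0.04 for Bcl9 and -0.45 for Ctnnbip1, and organoid minus MEF -0.24 for Ctnnbip1. Centred, organoid minus MEF was 0.08 for Tcf7l2. By cell type over all 18 arrays, it was 0.09 for Tcf7l2, MEF minus ESC was 0.15 for Tcf7l1, and organoid minus ESC -0.03 for Ctnnbip1. Leaving out 1 array gave, for RTC minus ESC, Pygo2 -0.21 to 0.04, Pygo1 -0.23 to 0.39 and Tcf7l2 -0.12 to 0.02; for RTC minus derivative, Ctnnbip1 -0.14 to 0.10, Bcl9 -0.47 to 0.34 and Pygo1 -0.33 to 0.12; for derivative minus ESC, Bcl9 -0.79 to 0.02, Pygo1 -0.12 to 0.50 and Tcf7l1 -0.36 to 0.01; for MEF with minus without 4-OHT, Lef1 -0.13 to 0.27; for organoid minus MEF, Tcf7l2 -0.09 to 0.20, Lef1 -0.40 to 0.02 and Bcl9 -0.29 to 0.04; for organoid minus ESC, Ctnnbip1 -0.20 to 0.06; for MEF minus ESC, Tcf7l1 -0.34 to 0.03. Where that left 1 array in an arm, it was assumed to vary like the others. The causes were not tested.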
